A study of Mus musculus with 12 samples.

Results

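Mammary tumours that received an antibody against PD-1 on top of PLX+PTX and carry the suffix R were set against tumours given PLX+PTX without an antibody. The comparison used 5 of the 12 tumour samples of the series, and its members were taken from the sample titles: 3 whose titles add aPD-1 and end in R (called R here), and 2 that read PLX+PTX. All 5 were mammary gland samples of genotype MMTV-PyMT: the mouse mammary tumour virus promoter drives the polyoma virus middle T oncogene in mammary epithelium. Both groups therefore carried the same transgene and the same PLX+PTX treatment, and R tumours differed by the added antibody and by the suffix R. The title of the series joins CSF1R inhibition with chemotherapy. The labels do not spell out PLX, PTX or R, give no age, strain, dose or time of sampling, and do not say whether the samples within a group are from different mice. The p-values below then measure the spread between these samples, which may be technical in part. The other 7 samples (PTX alone, the aPD-1 samples ending in NR, and those that add aPD-L1) entered the fit only to estimate the spread between samples.

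PD-1 is an inhibitory receptor of activated T cells. When it binds its ligand PD-L1 on tumour or myeloid cells, T cell receptor signalling is dampened, and an antibody against PD-1 removes this brake. T cells released in this way secrete interferon-gamma, which is known to raise antigen presentation, chemokines such as Cxcl9, and PD-L1 itself in surrounding cells. CSF1R is the receptor on which most tumour macrophages depend for survival, and its inhibition is used to deplete or reshape them. The comparison asks what the tumours labelled R expressed beyond what PLX+PTX left without the antibody.

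RNA of the 750 endogenous genes of the nCounter Mouse PanCancer IO360 panel was counted as barcodes after multiplex amplification. Total endogenous counts were 349598, 128083 and 298726 in R replicates 1, 2 and 3, and 342694 and 328325 in PLX+PTX replicates 1 and 2. R replicate 2 stood apart by its depth: its housekeeping geometric mean was 127 counts, against 284.8 and 260.4 in the other R libraries and 264 and 287.5 in PLX+PTX. The positive controls gave geometric means of 1192 to 1329 in R and 1225 to 1319 in PLX+PTX. Values below are counts divided by the housekeeping scale factor of the library (normalised counts). The detection limit, the mean of the negative controls plus 2 SD, corresponded to 26.4, 50.6 and 34.2 normalised counts in the R libraries and to 28.6 and 17.7 in PLX+PTX. Of 750 endogenous probes, 360 lay above this limit in all 5 libraries and 198 in none. Barcodes counted after amplification are not independent molecules, so the counts overstate the precision of a value. In whole tumours, fewer cells of a type and less RNA per cell cannot be told apart.

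No gene passed the test between R and PLX+PTX tumours. Of the 615 probes tested, 0% were called higher and 0% lower by edgeR's quasi-likelihood test with Benjamini-Hochberg adjustment, and the smallest adjusted p was 0.979. At an unadjusted p under 0.05 there were 15 probes (2.44%), 7 of them higher (1.14%) and 8 lower (1.3%) in R. Besides the genes described below, named after their values were seen, these included Cntfr above and Pik3r2, Clec5a, Zeb2 and Gas1 below PLX+PTX. Pik3r2, a regulatory subunit of PI3 kinase, had 473, 244 and 371 normalised counts in R and 608 and 541 in PLX+PTX (log2 fold change −0.66, SE 0.29). The standard error of a log2 fold change had a median of 0.37 over the 615 probes, and the 95% interval reached a median of 0.81 to either side. All log2 fold changes below are R over PLX+PTX from this fit, and none of them passed. The median over all tested probes was −0.07, with 256 above 0 (41.6%) and 359 below 0 (58.4%). With total endogenous counts in place of the housekeeping probes this median was 0.04 and the share below 0 was 44.4%. In 38 probes (6.18%) all 3 R libraries lay above both PLX+PTX libraries, and in 58 (9.43%) all lay below, 96 in all (15.6%). Among the 415 tested probes above the detection limit in at least 4 of the 5 libraries these were 20 (4.82%) and 42 (10.1%), and 64.1% of the 415 had a log2 fold change below 0. This split depended on the scaling: with TMM factors it was 54 above and 35 below, and with total endogenous counts 48 and 40. Of 32 gene lists described below, 23 had a median that turned sign when 1 of the 5 libraries was left out. The shares of 6.18% and 9.43% are the background against which the same counts for gene groups are read.

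**Figure D1:**
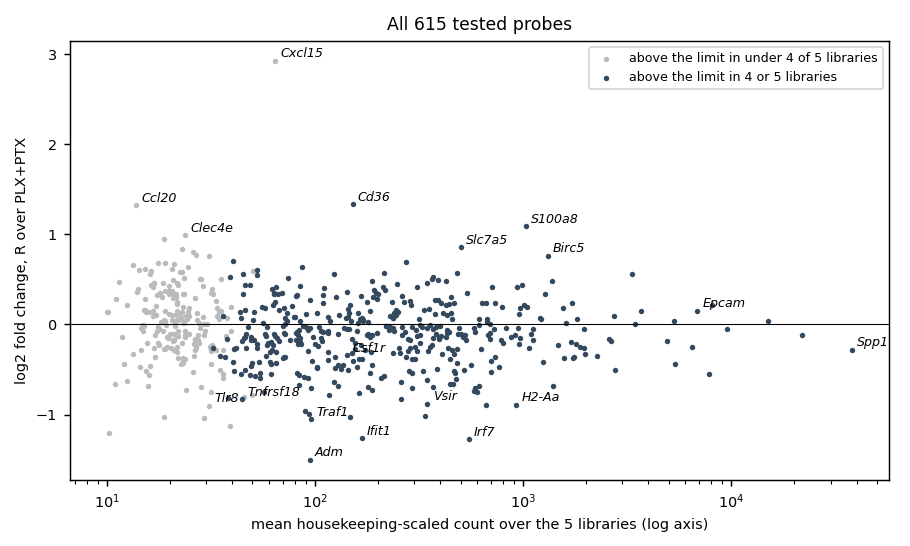
Log2 fold change of R over PLX+PTX (vertical axis) against the mean housekeeping-scaled count over the 5 libraries (horizontal log axis) for the 615 tested probes, dark where the probe was above the detection limit in 4 or 5 libraries. Most points lie within 1 log2 unit of 0, and no probe passed the test (smallest adjusted p = 0.979). Cxcl15, at 2.93, rests on R replicate 1.

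Slc7a5, which encodes the large neutral amino acid transporter LAT1, had the smallest p among the genes above the detection limit in at least 4 libraries. It had 483, 877 and 476 normalised counts in R replicates 1 to 3, against 294 and 379.6 in PLX+PTX. All 3 R libraries lay above both PLX+PTX libraries, with the highest value in R replicate 2. The log2 fold change was 0.86 (SE 0.31, 95% interval 0.17 to 1.54), and 0.51 without R replicate 2. It ranged from 0.51 to 1.05 over 17 alternative settings. Other genes of amino acid use lay on the same side. All 9 tested genes of amino acid transport and catabolism, of 10 on the panel, had a log2 fold change above 0, with a median of 0.46 against −0.07 for all tested probes. Without R replicate 1, 6 of the 9 lay above 0 and the median was 0.18, and without R replicate 2 it was 0.42. None of the 9 passed the test in either direction. In 2 of the 9, Slc7a5 and, named after its values were seen, Tdo2, all R libraries lay above PLX+PTX, against 6.18% of all tested probes. Among the 7 members above the detection limit in at least 4 libraries this held for Slc7a5 alone, against 4.82% of all such probes.

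Within this group, genes differed in which library was high. Nos2, the inducible nitric oxide synthase that consumes arginine, had 34.3, 66.98 and 43.3 normalised counts in R and 36.1 and 21.8 in PLX+PTX (log2 fold change 0.70, SE 0.37), with R replicate 2 the highest. The glutamine synthetase gene Glul, taken from the list after its values were seen, had 748, 179 and 229 in R and 252 and 311 in PLX+PTX. R replicate 1 alone was high, and the log2 fold change of 0.46 was −0.46 without that library. Arg1, the arginase of myeloid cells, also named after its values were seen, overlapped between the groups with 303, 149.7 and 264 in R and 156 and 213 in PLX+PTX. Tdo2, which degrades tryptophan, was above the detection limit in no R library and in 1 PLX+PTX library.

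**Figure D2:**
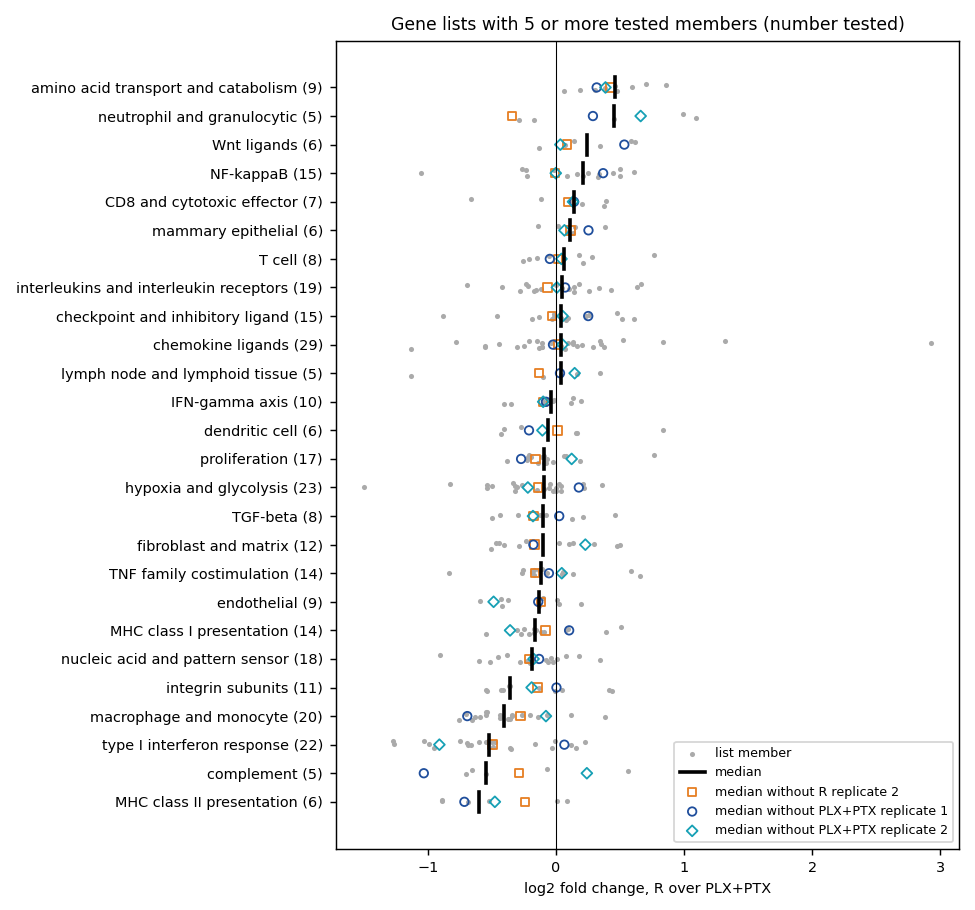
Log2 fold changes of R over PLX+PTX for the tested members (grey points) of each gene list with 5 or more of them, with the median (black bar) and the median after leaving out R replicate 2 (square), PLX+PTX replicate 1 (circle) or PLX+PTX replicate 2 (diamond). The amino acid list has its 9 members above 0 and a median of 0.46, while the interferon median of −0.52 is 0.06 without PLX+PTX replicate 1.

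Genes of the type I interferon response had a lower median in R, and its sign turned without a single PLX+PTX library. Type I interferons signal through a transcription factor complex that holds Stat2 and Irf9. It binds a conserved promoter element and switches on antiviral effectors. Promoter stretches are shown for 3 such effectors with PLX+PTX replicate 1 the highest of the 5 libraries, and only motif-holding stretches were eligible. They come from RefSeq windows of 250 bases before to 50 after the start (GRCm38.p6) and are written 5′ to 3′ on the gene's strand, with the motif searched for in capitals: GAAA, any 2 bases, then GAAA, on either strand.
Ifit1, chr19:34640760-34640838, + strand: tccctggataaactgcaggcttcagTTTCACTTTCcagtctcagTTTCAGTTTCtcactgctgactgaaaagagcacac
Ifit3, chr19:34583348-34583441, + strand: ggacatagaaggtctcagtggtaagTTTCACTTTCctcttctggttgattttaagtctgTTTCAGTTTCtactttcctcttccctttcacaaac
Isg15, chr4:156200850-156200921, - strand: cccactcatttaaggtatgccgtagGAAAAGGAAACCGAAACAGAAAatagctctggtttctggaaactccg
The runs hold 2, 2 and 3 matches, and the 3 in Isg15 overlap. Irf7 and Ifit2 were also highest in PLX+PTX replicate 1, and their windows held no match. Ifih1, likewise highest there, had a window with the motif that is not shown. Of 18 listed interferon genes with a promoter window, 11 held the motif (61.1%), against 3.99% of 27025 genes with a window and 9.58% of the 449 tested genes with one. A match is a description of the sequence and was not tied to the counts.

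Ifit1, which blocks translation of foreign RNA, had 94.04, 84.7 and 141 normalised counts in R and 378 and 138 in PLX+PTX (log2 fold change −1.26, SE 0.66). Its relative Ifit3 had 65.9, 139.9 and 108 in R, against 326 and 97.5 in PLX+PTX (log2 fold change −1.03, SE 0.60). Isg15, a ubiquitin-like modifier, had 315, 512 and 581 in R and 1136 and 441 in PLX+PTX (log2 fold change −0.75, SE 0.67). In each of the 3, PLX+PTX replicate 1 was the highest library and PLX+PTX replicate 2 lay within the range of R. The same held for Irf7, the transcription factor that amplifies the response, with 287, 211 and 547 in R and 1276 and 414 in PLX+PTX (log2 fold change −1.27, SE 0.71). Its value in PLX+PTX replicate 1 was the highest of all 12 libraries, since the 7 libraries of other groups reached at most 519.8. Oas2, which makes the activator of RNase L, had 18.5, 106 and 73.05 in R and 211 and 39.2 in PLX+PTX (log2 fold change −0.96, SE 0.73). Only Ifit2 (74.7, 57.1 and 67.3 in R, 181 and 84.4 in PLX+PTX) and the RNA sensor gene Ifih1 (419, 317 and 445 in R, 750.1 and 447 in PLX+PTX) had all R libraries below both PLX+PTX libraries among the 22 tested genes of the list.

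As a group, 19 of 22 tested interferon genes lay below 0, with a median of −0.52. None passed the test, and the 2 without overlap are close to the 9.43% of all tested probes. PLX+PTX replicate 1 was the highest of the 5 libraries for 16 of the 22 genes (72.7%), against 25.4% of all 615 probes. Without it the median was 0.06, and without PLX+PTX replicate 2 it was −0.91. Summed over the list, the counts were 8306, 9980.2 and 10128 in R and 14326 and 9040.0 in PLX+PTX, and the 7 libraries of the other groups ranged from 4119.9 to 9833. The R libraries also differed among themselves. R replicate 1 was the lowest library for 10 of the 22 genes (45.5%), against 16.1% of all tested probes. The antiviral GTPase gene Mx1 was among the 10 (29.9, 122 and 41.3 in R, 119 and 40.9 in PLX+PTX, named after its values were seen). Leaving out R replicate 2, the library of low depth, gave a median of −0.50.

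**Figure D3:**
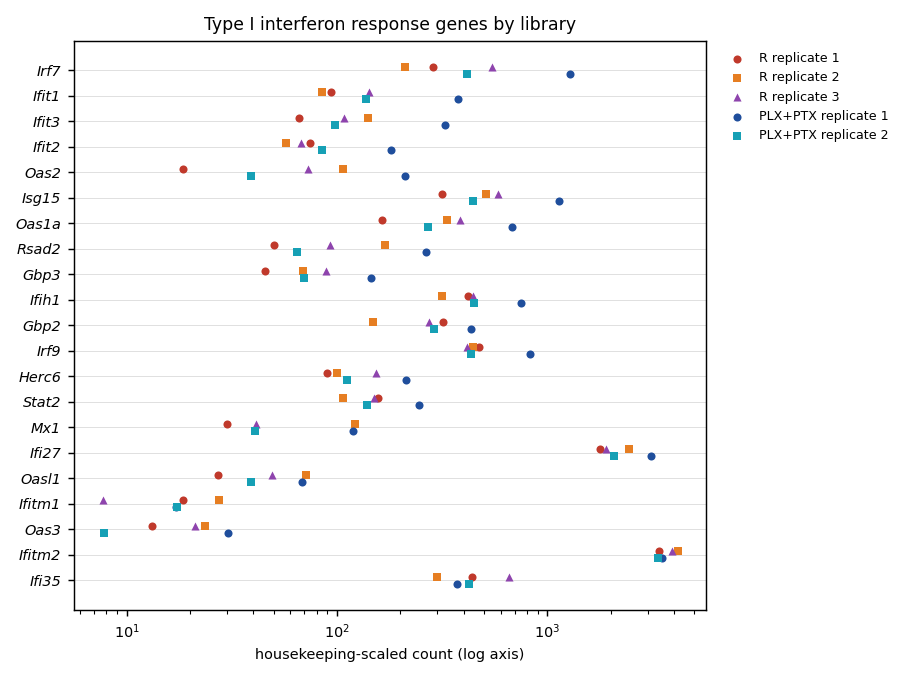
Housekeeping-scaled counts (horizontal log axis) of 21 of the 22 tested type I interferon response genes in the 3 R libraries and the 2 PLX+PTX libraries, ordered by fold change. PLX+PTX replicate 1 is the rightmost point for 16 of the genes plotted, while PLX+PTX replicate 2 lies within the range of the R libraries for 17.

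Interferon-gamma itself was not detectable at this signal, and the genes around it had a median close to 0 in this fit. Ifng was above the detection limit in no library (5.27, 9.85 and 3.84 in R and 4.75 and 4.35 in PLX+PTX), and neither was the chemokine gene Cxcl9 (9.67, 9.85 and 8.65 in R and 9.49 and 6.09 in PLX+PTX). Both were left out of the test by the count minimum. The receptor chain gene Ifngr1 had 516, 487 and 455 in R and 483 and 559.8 in PLX+PTX (log2 fold change −0.10, SE 0.30). Irf1, a transcription factor induced by interferon-gamma, had 545, 299 and 414 in R and 434 and 467 in PLX+PTX (log2 fold change −0.10, SE 0.28), so the groups overlapped in both genes. The kinase gene Jak1 had 1494, 676 and 1130.3 in R, against 768 and 1161 in PLX+PTX. The interferon-gamma list had 3 of 10 tested members above 0 and a median of −0.04 (−0.14 to −0.03 with 1 library left out), and none passed. Of the 10, 5 were above the detection limit in at least 4 libraries. The median was 0.04 with TMM factors and 0.07 with total endogenous counts. After subtraction of the negative controls 9 of the 10 lay below 0 and the median was −0.47.

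MHC class II genes, which present antigen to CD4 T cells and are expressed by macrophages, dendritic cells and B cells, had a lower median in R without passing the test. H2-Aa had 1029, 201 and 832 normalised counts in R and 1207 and 1352 in PLX+PTX (log2 fold change −0.89, SE 0.68, 95% interval −2.38 to 0.59). Its partner chain H2-Ab1 had 707, 139.9 and 627 in R and 852 and 981 in PLX+PTX (log2 fold change −0.89, SE 0.60). Cd74, the invariant chain that escorts both, had 1529, 628 and 1198 in R and 1745 and 1853 in PLX+PTX (log2 fold change −0.68, SE 0.53). These 3 genes had all R libraries below both PLX+PTX libraries, 3 of the 6 tested members of the list against 9.43% of all probes. R replicate 2 was far lower than the other R libraries in each, and without it the log2 fold changes were −0.46, −0.46 and −0.40. The part of the low depth of that library was not tested. The list median was −0.60, was −0.24 without R replicate 2, and ranged from −1.09 to −0.18 over the alternatives. Summed over the 9 genes on the panel, R replicate 2 had 1225 counts, the lowest of all 12 libraries. The protease gene Ctss, which trims the invariant chain and was named after its values were seen, overlapped between the groups (817, 162 and 799 in R, 741 and 969.8 in PLX+PTX).

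MHC class I genes, which present antigen to CD8 T cells, were mixed. B2m, the shared light chain, had 6804, 5289.5 and 7681 in R and 11940.4 and 7355 in PLX+PTX (log2 fold change −0.55, SE 0.39). The value of PLX+PTX replicate 1 was the highest, and the other PLX+PTX library fell within the range of R. Tap2, a subunit of the peptide transporter, lay the other way with 366, 529.9 and 343 in R and 318 and 261 in PLX+PTX, all R libraries being higher (log2 fold change 0.51, SE 0.31). Its partner Tap1, named after its values were seen, had 187, 156 and 162 in R and 220.3 and 198 in PLX+PTX, all R libraries being lower. The non-classical H2-T23 had 85.3, 76.8 and 44.2 in R and 55.1 and 49.6 in PLX+PTX. Of 14 tested class I genes 10 lay below 0 (median −0.16, and 0.10 without PLX+PTX replicate 1), and none passed.

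Macrophage and monocyte genes had a lower median in R, with R replicate 2 low and PLX+PTX replicate 2 high in most of them. Csf1r, the receptor whose inhibition the series title names, had 148, 80.8 and 158 normalised counts in R and 134 and 195 in PLX+PTX (log2 fold change −0.34, SE 0.42, 95% interval −1.26 to 0.58). The groups overlapped, and the log2 fold change was −0.11 without R replicate 2 and −0.04 without PLX+PTX replicate 2. Its ligand Csf1 had 185, 229 and 162 in R and 207 and 138 in PLX+PTX (log2 fold change 0.15, SE 0.36). Cd68, a lysosomal glycoprotein of phagocytes, had 130.1, 66.98 and 182 in R and 178 and 254 in PLX+PTX (log2 fold change −0.76, SE 0.39). The complement genes C1qa and C1qb, made largely by macrophages, lay at −0.70 (SE 0.52) and −0.66 (SE 0.53) on the log2 scale of R over PLX+PTX. C1qa had 595, 173 and 634 in R and 538 and 988 in PLX+PTX, so that R replicates 1 and 3 lay between the PLX+PTX libraries. Cx3cr1, the fractalkine receptor of monocytes and resident macrophages, had 192, 114 and 158 in R and 184 and 267 in PLX+PTX (log2 fold change −0.54, SE 0.37).

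Of 20 tested macrophage genes of 22 on the panel, 18 lay below 0 with a median of −0.41, and none passed. In 2 of the 20 genes, Fcgr1 and Axl (both named after their values were seen), the R libraries all lay below PLX+PTX, close to the 9.43% of all probes. PLX+PTX replicate 2 was the highest library for 16 of the 20 genes (80%), against 19.5% of all tested probes. R replicate 2 was the lowest for 14 (70%), against 31.2%. The median was −0.08 without PLX+PTX replicate 2, −0.28 without R replicate 2 and −0.69 without PLX+PTX replicate 1. The monocyte receptor gene Cd14, named after its values were seen (983, 1099 and 876 in R, 963 and 851 in PLX+PTX) and Arg1 were the 2 members above 0. The summed list gave 10526, 4322 and 8787 counts in R and 7822 and 12880.1 in PLX+PTX, and R replicate 2 was the lowest of all 12 libraries. It had 10 of the 22 genes above its detection limit, against 18 to 20 in the other 4 libraries. The part of its low depth in these values was not tested. Complement genes, of which C1qa and C1qb belong to both lists, had a median of −0.55 over 5 tested members, and 0.24 without PLX+PTX replicate 2. Integrin subunits had 8 of 11 below 0 (median −0.36, and 0.0031 without PLX+PTX replicate 1). Among them Itgb2, the shared beta chain of leukocyte integrins, had 45.7, 45.3 and 46.1 in R and 52.2 and 80.96 in PLX+PTX without overlap. Its partner Itgam overlapped with 47.5, 23.6 and 39.4 in R and 45.6 and 64.4 in PLX+PTX, while the collagen receptor chain Itga2 had 47.5, 70.9 and 36.5 in R and 39.9 and 34.8 in PLX+PTX.

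**Figure D4:**
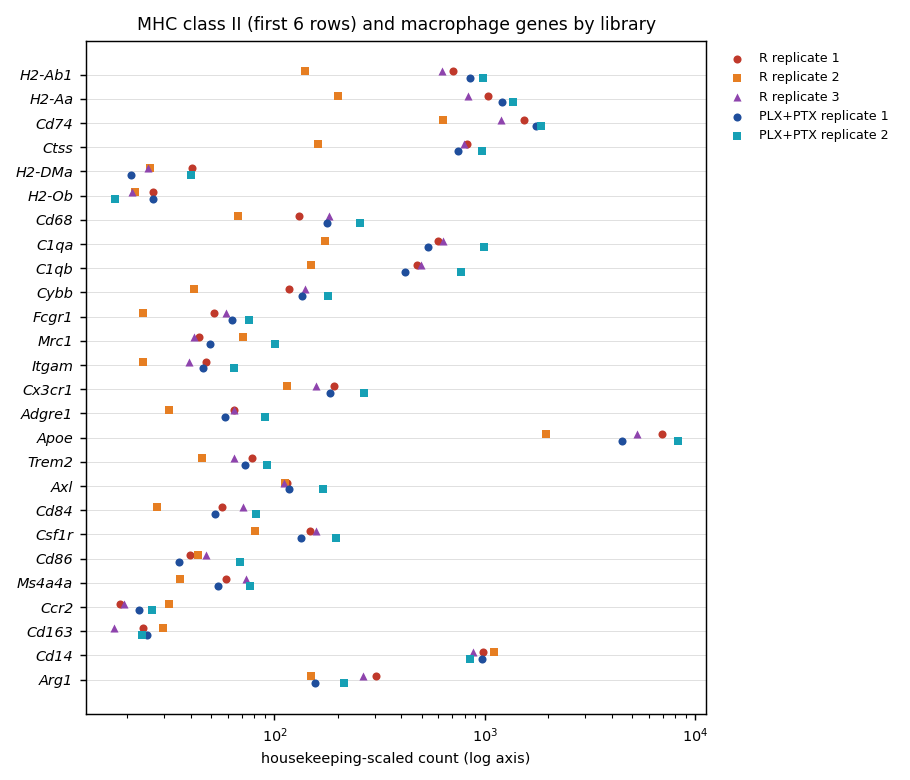
Housekeeping-scaled counts (horizontal log axis) of the 6 tested MHC class II genes and the 20 tested macrophage and monocyte genes in the 3 R and the 2 PLX+PTX libraries. R replicate 2 is the leftmost point for 14 of the macrophage genes and PLX+PTX replicate 2 the rightmost for 16.

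Most T cell genes, the genes of the cells on which an antibody against PD-1 acts, were below the detection limit. Pdcd1, which encodes PD-1, had 12.3, 13.8 and 6.73 normalised counts in R and 5.7 and 8.71 in PLX+PTX, below the detection limit in all 5 libraries. Cd8a, the CD8 alpha chain, had 23.7, 9.85 and 9.61 in R and 8.55 and 8.71 in PLX+PTX, and Cd3e, a chain of the T cell receptor complex, 15.8, 13.8 and 18.3 in R and 6.65 and 13.9 in PLX+PTX. Foxp3, the factor that defines regulatory T cells, had 10.5, 13.8 and 5.77 in R and 6.65 and 5.22 in PLX+PTX. None of the 4 was above the limit in any of the 5 libraries, and none was tested. A change in these genes was not detectable at this signal. Of 17 T cell genes, 1, 0 and 0 were above the limit in R replicates 1, 2 and 3, and 0 and 5 in the PLX+PTX libraries. The 8 that were tested had a median of 0.06 (−0.05 to 0.08 with 1 library left out), with 4 above 0 and 4 below. After subtraction of the negative controls the median was −0.96, with 1 above 0 and 5 below.

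Cytotoxic genes were close to background as well. Gzmb, a granule protease of killer cells, had 43.9, 29.6 and 31.7 in R and 21.8 and 32.2 in PLX+PTX (log2 fold change 0.39, SE 0.32), with 1 library of each group above the limit. Gzma, another protease of the granules, had 22.9, 13.8 and 12.5 in R and 18.04 and 18.3 in PLX+PTX (log2 fold change −0.12, SE 0.47). Ccl5, a chemokine secreted by activated T cells and by other cells, was above the limit in all 5 libraries. It had 134, 51.2 and 57.7 in R and 75.01 and 67.9 in PLX+PTX (log2 fold change 0.20, SE 0.47), and R replicate 1 alone lay above PLX+PTX. The CD8 and cytotoxic list had 5 of 7 tested members above 0 and a median of 0.14 (0.02 to 0.41 with 1 library left out). After subtraction of the negative controls 5 of the 7 lay below 0 and the median was −0.71. Only Ccl5 among the 7 was above the limit in at least 4 libraries. Genes of resident memory T cells, the cells named in the series title, were low too. Itgae, the CD103 integrin chain, had 21.97, 23.6 and 21.1 in R and 22.8 and 20.02 in PLX+PTX (log2 fold change 0.05, SE 0.59) and passed the limit in 1 PLX+PTX library. Prdm1, a transcription factor of this state and of other cells, had 47.5, 39.4 and 42.3 in R and 82.6 and 46.1 in PLX+PTX (log2 fold change −0.57, SE 0.38). The resident memory list had 3 of 4 tested members below 0, with a median of −0.12 (−0.28 to 0.03 with 1 library left out). With the negative controls subtracted, all 4 lay below 0 and the median was −1.55.

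Lists of the remaining lymphocytes and of dendritic cells rested on few tested genes, none of which passed. The medians were −0.07 over 3 regulatory T cell genes, −0.20 over 3 NK cell genes, 0.04 over 2 B and plasma cell genes and 0.04 over 5 genes of lymphoid tissue. Each of these 4 medians turned sign when 1 of the libraries was left out. After subtraction of the negative controls they were −1.56, −1.87, −1.05 and −0.73 in the same order. The dendritic cell list had a median of −0.06 (−0.21 to 0.02 with 1 library left out) over 6 genes, and −0.94 after the same subtraction. None of the 6 was above the detection limit in 4 of the 5 libraries. Ikzf2, the regulatory T cell factor Helios, had 63.3, 102 and 44.2 in R and 65.5 and 43.5 in PLX+PTX.

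Among checkpoint genes, the ligand of PD-1 was not detected and Vsir had the largest difference. Cd274, which encodes PD-L1, had 23.7, 25.6 and 14.4 normalised counts in R and 27.5 and 14.8 in PLX+PTX, above the limit in no library (log2 fold change −0.02, SE 0.52, 95% interval −1.14 to 1.11). Vsir encodes VISTA, an inhibitory receptor and ligand of myeloid and T cells. It had 310.2, 195 and 269 in R and 614 and 341 in PLX+PTX, so that all R libraries lay below both PLX+PTX libraries (log2 fold change −0.88, SE 0.47). The log2 fold change was −0.40 without PLX+PTX replicate 1 and −0.72 without R replicate 2. The ectoenzymes that make adenosine from ATP lay in opposite directions. Entpd1 (CD39) had 47.5, 27.6 and 51.9 in R and 43.7 and 74.9 in PLX+PTX, and Nt5e (CD73) 73.8, 134 and 47.1 in R and 54.1 and 62.7 in PLX+PTX (log2 fold change 0.51, SE 0.43). Both overlapped between the groups. The whole list had 8 of 15 tested members above 0 and a median of 0.04 (−0.03 to 0.25 with 1 library left out).

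Tnfrsf18, which encodes the costimulatory receptor GITR of T cells, was low in R and was 1 of the 6 genes of smallest p. It had 29.9, 31.5 and 40.4 normalised counts in R and 69.3 and 52.2 in PLX+PTX (log2 fold change −0.83, SE 0.31, 95% interval −1.51 to −0.16). The groups did not overlap, and the difference was −0.79 without R replicate 2. R replicate 2 lay below its own detection limit there, while the other 4 libraries lay above theirs. Other costimulatory genes lay closer together. Cd86, a CD28 ligand of antigen-presenting cells, had 39.6, 43.3 and 47.1 in R and 35.1 and 68.8 in PLX+PTX, and Tnfrsf14, the receptor HVEM, 45.7, 39.4 and 41.3 in R and 62.7 and 33.95 in PLX+PTX. Of 14 tested costimulation genes 9 lay below 0 (median −0.12, −0.18 to 0.04 with 1 library left out).

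Sensors of microbial products and nucleic acids had a slightly lower median in R. Tlr8, an endosomal Toll-like receptor, had 21.97, 21.7 and 24.99 normalised counts in R and 42.7 and 43.5 in PLX+PTX (log2 fold change −0.91, SE 0.34, 95% interval −1.64 to −0.17). Its 3 R libraries were below their detection limits and both PLX+PTX libraries above theirs. These limits differed, and that of R replicate 2, at 50.6, was higher than both PLX+PTX values. Tlr4, the endotoxin receptor, had 268, 209 and 245 in R and 429 and 261 in PLX+PTX (log2 fold change −0.52, SE 0.28). Tmem173, which encodes STING, had 103, 122 and 133 in R and 194 and 132 in PLX+PTX (log2 fold change −0.45, SE 0.28). In both, PLX+PTX replicate 1 was the highest library and the other PLX+PTX library lay within or at the edge of the range of R. Of 18 tested sensor genes 14 lay below 0 with a median of −0.19 (−0.56 to −0.09 over the alternatives). The R libraries of Tlr8, Ifih1 and, named after their values were seen, Tlr7 and Myd88 all lay below PLX+PTX, 4 of 18 against 9.43% of all probes. Among the 10 members above the detection limit in at least 4 libraries this held for 2, against 10.1% of all such probes. Ifih1 belongs to the interferon list as well.

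Genes of NF-kappaB signalling leaned the other way. Nfkbia, the inhibitor that NF-kappaB itself induces, had 1318, 883 and 1093 normalised counts in R and 764 and 851 in PLX+PTX (log2 fold change 0.44, SE 0.34). Nfkbie, a related inhibitor, had 69.4, 49.3 and 63.4 in R and 34.2 and 46.1 in PLX+PTX (log2 fold change 0.61, SE 0.31). In both genes all R libraries lay above both PLX+PTX libraries, as in the subunit gene Relb (276, 278 and 306 in R, 246 and 235 in PLX+PTX, named after its values were seen). That made 3 of 15 tested members, against 6.18% of all probes. For Nfkbie, R replicate 2 lay below its own detection limit of 50.6. The scaled negative controls averaged 23.9 in that library, against 13.1 in PLX+PTX replicate 2. The part of this background in the separation was not tested. The adaptor gene Traf1, itself a target of the pathway, had the opposite order with 79.1, 23.6 and 94.2 in R and 171 and 109 in PLX+PTX (log2 fold change −1.05, SE 0.57). Its value in R replicate 2 was at the level of the scaled negative controls of that library (23.9). In all, 10 of the 15 lay above 0 with a median of 0.21. The median was −0.0065 without R replicate 2 and −0.0023 without PLX+PTX replicate 2.

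Of 29 tested chemokine ligand genes, 3 had an unadjusted p under 0.05, against 2.44% of all 615 probes, with levels near background outside 1 library. Ccl20, which attracts cells bearing CCR6, had 18.5, 15.8 and 20.2 normalised counts in R and 8.55 and 6.09 in PLX+PTX (log2 fold change 1.32, SE 0.35, 95% interval 0.55 to 2.09). It had the smallest p of the comparison (adjusted p = 0.979 by edgeR) and lay under the detection limit in all 5 libraries. The scaled negative controls averaged 19.2, 23.9 and 19.5 in the R libraries, against 16.5 and 13.1 in PLX+PTX. After subtraction of the negative controls the log2 fold change of Ccl20 was 0, since every value was at the floor. Cxcl15, a neutrophil-attracting chemokine named after its values were seen, had 265, 17.7 and 12.5 in R and 13.3 and 13.1 in PLX+PTX. Its log2 fold change of 2.93 (SE 1.18) rested on R replicate 1 and was 0.15 without it. Ccl17, a chemokine of dendritic cells also named after its values were seen, had 31.6, 31.5 and 20.2 in R and 13.3 and 17.4 in PLX+PTX (log2 fold change 0.83, SE 0.33).

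Of the better detected chemokines, Ccl8 and Ccl12, both monocyte attractants in mice, had lower means in R. Ccl8 had 130.1, 47.3 and 92.3 in R and 72.2 and 242 in PLX+PTX, with the R libraries on both sides of PLX+PTX replicate 1. Ccl12 had 65.04, 90.6 and 57.7 in R and 92.1 and 115 in PLX+PTX without overlap (log2 fold change −0.56, SE 0.31). Cxcl14, an epithelial chemokine, had 109, 110.3 and 96.1 in R and 88.3 and 171 in PLX+PTX. Over 29 tested chemokine ligands the median was 0.04 (−0.06 to 0.17 with 1 library left out), with 15 above 0. The receptor gene Cxcr4 had 435, 110.3 and 296 in R and 271 and 401 in PLX+PTX (log2 fold change −0.25, SE 0.46), and the 4 tested chemokine receptors had a median of −0.39 (−0.72 to −0.14 with 1 library left out). Among interleukins, Il18bp, which neutralises IL-18 and is induced by interferon-gamma, had 164, 108 and 159.5 in R and 282 and 187 in PLX+PTX without overlap (log2 fold change −0.69, SE 0.32). Il18 itself had 35.2, 23.6 and 46.1 in R and 61.7 and 33.95 in PLX+PTX. Il33, an alarmin of epithelial and stromal cells, had 131, 116 and 56.7 in R and 43.7 and 86.2 in PLX+PTX (log2 fold change 0.63, SE 0.47). The 19 tested interleukin and receptor genes had a median of 0.05 (−0.07 to 0.12 with 1 library left out), and −0.84 after subtraction of the negative controls.

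Among granulocyte genes, S100a8 alone was above the detection limit in at least 4 libraries. This gene encodes a calcium-binding protein abundant in neutrophils and had 441, 3000.3 and 479 normalised counts in R and 546 and 677 in PLX+PTX (log2 fold change 1.09, SE 0.84). R replicate 2 alone was high, and was the highest of all 12 libraries. Without it the log2 fold change was −0.41, and the other R libraries lay below both PLX+PTX libraries. The defining neutrophil gene Ly6g (12.3, 13.8 and 17.3 in R, 13.3 and 6.96 in PLX+PTX) and the receptor gene Cxcr2 (11.4, 13.8 and 12.5 in R, 13.3 and 12.2 in PLX+PTX) were above the limit in none of the 5. Both were named after their values were seen. Clec4e, which encodes the receptor Mincle of myeloid cells, had 20.2, 37.4 and 31.7 in R and 16.1 and 13.1 in PLX+PTX (log2 fold change 0.99, SE 0.37), likewise under the limit in all 5. The neutrophil list had 3 of 5 tested members above 0, with a median of 0.46 that was −0.34 without R replicate 2. The mast cell list had a median of 0.08 (−0.26 to 0.31 with 1 library left out) over 4 genes, with Kit, the stem cell factor receptor, at 599, 790.0 and 649.7 in R and 782 and 546 in PLX+PTX.

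The tumour epithelium was well detected in all 5 libraries. Epcam, an adhesion molecule of epithelial cells, had 8314, 5741 and 7256 normalised counts in R and 6581 and 6229.8 in PLX+PTX (log2 fold change 0.15, SE 0.25, 95% interval −0.40 to 0.70). Lamb3, a laminin chain of the basement membrane, had 228, 189 and 217 in R and 163 and 162 in PLX+PTX, all R libraries being higher (log2 fold change 0.38, SE 0.29). The oestrogen receptor gene Esr1 overlapped with 91.4, 106 and 29.8 in R and 76.9 and 60.1 in PLX+PTX. The epithelial list had 5 of 6 tested members above 0 and a median of 0.11. Without R replicate 1 there were 3 and a median of −0.02, and after subtraction of the negative controls the median was −0.22. Spp1, the secreted matrix protein osteopontin, took 13.5%, 9.77% and 13.6% of the endogenous counts in R and 14.9% and 12.8% in PLX+PTX (log2 fold change −0.28, SE 0.70).

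Proliferation genes had a median close to that of all probes. Mki67, a nuclear protein of cycling cells, had 1479, 1858 and 1727 in R and 1821 and 2111 in PLX+PTX (log2 fold change −0.22, SE 0.27). Anln, which scaffolds the cleavage furrow, had 139, 154 and 156 in R and 188 and 201 in PLX+PTX without overlap (log2 fold change −0.38, SE 0.32). Cenpf, a kinetochore protein, had 139, 179 and 148 in R and 176 and 187 in PLX+PTX. Birc5, which encodes the mitotic and anti-apoptotic protein survivin, varied most. Its values were 638, 2764 and 1308 in R and 860.2 and 985 in PLX+PTX (log2 fold change 0.76, SE 0.55), and without R replicate 2 the log2 fold change was 0.08. Of 17 tested proliferation genes 13 lay below 0 with a median of −0.09. PLX+PTX replicate 2 was the highest library for 12 of the 17 (70.6%), against 19.5% of all tested probes. Leaving it out gave a median of 0.12.

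Among hypoxia-induced genes, those with the largest differences were high in PLX+PTX replicate 1. That library was the highest for 10 of the 23 tested genes (43.5%), and R replicate 2 for 6 (26.1%). All 23 were above the detection limit in at least 4 libraries. Among the 415 such probes the shares were 30.8% and 29.4%, and among all tested probes 25.4% and 32.4%. Adm, which encodes the vasodilator peptide adrenomedullin, had 45.7, 31.5 and 83.6 normalised counts in R and 272 and 38.3 in PLX+PTX (log2 fold change −1.50, SE 0.89). It had the lowest log2 fold change of the detected genes, and without PLX+PTX replicate 1 the value was 0.51. Vegfa, the endothelial growth factor, had 127, 297 and 168 in R and 592 and 104 in PLX+PTX (log2 fold change −0.83, SE 0.66, and 0.91 without PLX+PTX replicate 1). Ero1l, an oxidase of the endoplasmic reticulum, had 303, 542 and 356 in R and 761 and 401 in PLX+PTX. In all 3 genes PLX+PTX replicate 2 lay inside or below the range of R. The hypoxia and glycolysis list had 16 of 23 members below 0, a median of −0.10, and 0.18 without PLX+PTX replicate 1.

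Genes of vessels and matrix were slightly lower or mixed. Pecam1, the endothelial adhesion molecule CD31, had 90.5, 45.3 and 92.3 normalised counts in R and 108 and 125 in PLX+PTX (log2 fold change −0.60, SE 0.47), and Cdh5, the cadherin of endothelial junctions, 65.04, 47.3 and 48.1 in R and 75.96 and 67.9 in PLX+PTX. The groups did not overlap in these 2 genes, 2 of the 9 tested members against 9.43% of all probes. R replicate 2 lay below its own detection limit of 50.6 in both. The VEGF receptor gene Kdr overlapped with 70.3, 25.6 and 72.1 in R and 93.05 and 61.8 in PLX+PTX. The endothelial list had 6 of 9 below 0 and a median of −0.13 (−0.49 to −0.12 with 1 library left out). Among matrix genes, the basement membrane collagen gene Col4a5 had 453, 504 and 508 in R and 753 and 577 in PLX+PTX without overlap (log2 fold change −0.45, SE 0.25). The microfibrillar collagen gene Col6a3 had 98.4, 88.7 and 70.2 in R and 66.5 and 160.2 in PLX+PTX. Thbs1, the matricellular protein thrombospondin 1, had 1135, 2644 and 861 in R and 1229.5 and 986 in PLX+PTX, with R replicate 2 the highest. The fibroblast and matrix list had 6 genes above and 6 below 0, with a median of −0.10. Without R replicate 2, 2 lay above 0 and the median was −0.17, whereas without PLX+PTX replicate 2 it was 0.23.

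Secreted growth factors were likewise mixed. Tgfb3 had 2624, 2051 and 2421 in R and 4133 and 2571 in PLX+PTX (log2 fold change −0.50, SE 0.28), and Tgfb1, the isoform best known for suppressing T cells, 337, 248 and 333 in R and 235 and 293 in PLX+PTX. Their type II receptor Tgfbr2 had 475, 203 and 279 in R and 403 and 382 in PLX+PTX. The TGF-beta list had a median of −0.10 (−0.18 to 0.02 with 1 library left out) over 8 tested genes. Of 6 tested Wnt ligands 5 lay above 0 (median 0.24). Without PLX+PTX replicate 2, R replicate 1 or R replicate 2, 3 of 6 lay above 0, with medians of 0.03, 0.10 and 0.09, and without PLX+PTX replicate 1 the median was 0.53. Wnt5a, a ligand of the non-canonical branch, had 456, 979 and 326 in R and 498 and 422 in PLX+PTX, Wnt5b 501, 924 and 629 in R and 748 and 557 in PLX+PTX, and Wnt7b 39.6, 35.5 and 56.7 in R and 62.7 and 34.8 in PLX+PTX. All 3 overlapped between the groups.

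**Figure D5:**
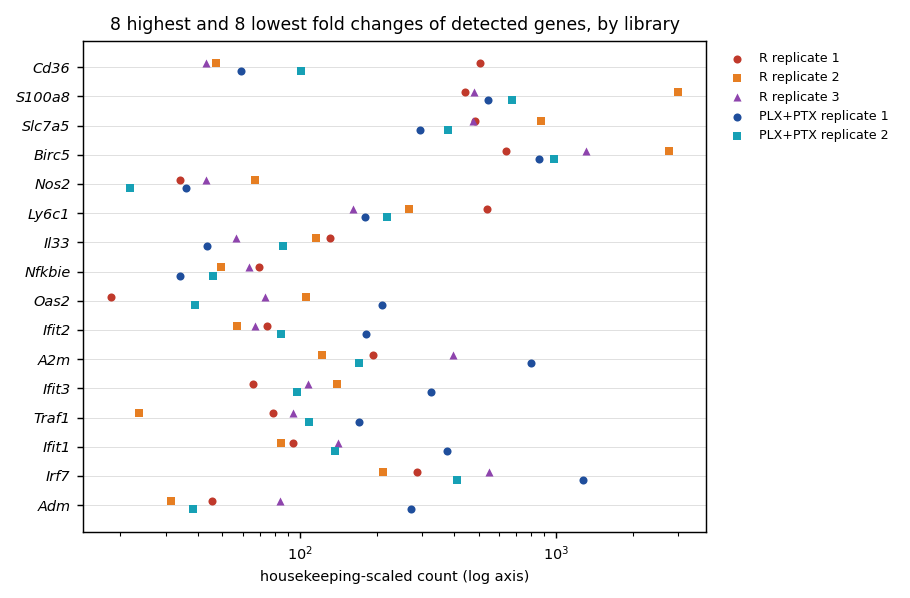
Housekeeping-scaled counts (horizontal log axis) in the 3 R and the 2 PLX+PTX libraries for the 8 highest and 8 lowest log2 fold changes among the 415 tested probes above the detection limit in at least 4 of the 5 libraries. Slc7a5 and Nfkbie have all R libraries to the right of PLX+PTX, while Cd36 and S100a8 each have 1 R library far from the others.

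The remaining genes at the ends of the ranking also turned on single libraries. Cd36, a fatty acid and scavenger receptor, had 506, 47.3 and 43.3 normalised counts in R and 58.9 and 101 in PLX+PTX. Its log2 fold change of 1.33 (SE 0.89) was −0.83 without R replicate 1. Ly6c1, a surface protein of endothelial and lymphoid cells, had 539, 268 and 161 in R and 180.4 and 220.3 in PLX+PTX (log2 fold change 0.69, SE 0.46, and 0.09 without R replicate 1). A2m, a secreted protease inhibitor, had 194, 122 and 396 in R and 798 and 171 in PLX+PTX (log2 fold change −1.02, SE 0.69), and 0.49 without PLX+PTX replicate 1. Fgf13, a member of the fibroblast growth factor family that acts inside cells, was 1 of the 6 genes of smallest p with 35.2, 33.5 and 24.99 in R and 20.9 and 14.8 in PLX+PTX. Its groups did not overlap (log2 fold change 0.80, SE 0.32), and 1 R library was above the detection limit.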

How the data were processed

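The deposited raw table holds whole-number barcode counts of 784 probes, 750 endogenous, 20 housekeeping, 6 positive and 8 negative, per the file headers. Per the labels' protocols, RNA of snap-frozen tumour was copied into cDNA and amplified for the panel's targets before counting. The authors also deposited log2 values, and how these were normalised was not given in the sources used here. DESeq2 and limma are listed, with no role or order, in the submitters' processing notes. The log2 table served as an alternative.

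Counts were scaled on the geometric mean of the 20 housekeeping probes. Probes with 20 or more raw counts in at least 2 of 12 libraries were tested (615 of 750). All 12 libraries entered one edgeR fit of 5 group means (edgeR 4.0.16, limma 3.58.1, DESeq2 1.42.0, R 4.3.3), which left 7 residual degrees of freedom, and Benjamini-Hochberg adjustment ran over the 615. The fit was also run on counts simulated from its own dispersions and scale factors. Such a run cannot show whether the model suits these libraries. Replicates were numbered in accession order, and the numbers pair no samples. No pair of libraries of the same group matched within the noise of independent counts (lowest chi-square per degree of freedom 15.9). Barcodes counted after amplification are not independent, so this value may overstate how far the libraries differ.

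The members of the comparison and the 32 gene lists were chosen with earlier results of these data known, and so were the rules. Named genes were the 6 of smallest p and, among probes above the detection limit in at least 4 of the 5 libraries, the 8 highest and 8 lowest fold changes. Up to 3 such members of each list with the largest fold change and 19 fixed genes were added. All 750 symbols were found in a RefSeq table, 6 of them as an older synonym, and are printed as deposited. Some genes are counted in the lists but not reported here by name.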

Additional observations from a re-analysis of the deposited data

How the results depend on the processing

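Across the 17 alternatives, 0 probes passed the adjusted threshold by edgeR, DESeq2 or limma, and the smallest adjusted p lay between 0.501 and 0.999. The number of probes at an unadjusted p under 0.05, 15 as reported, was 23 with no count minimum, 6 among probes above the detection limit in 4 of 5 libraries, and 42 with the deposited log2 values. DESeq2 gave 11, with no adjusted p for 2 probes, and limma-voom 13. Leaving out 1 library at a time gave 11 to 27, with 27 without PLX+PTX replicate 2. The 96 probes without overlap became 195 without R replicate 2 (70 above and 125 below), an alternative added after seeing the data, and leaving 2 R libraries against 2 makes separation easier by construction. Subtracting the negative controls gave 15 above and 107 below, and a median over all tested probes of −0.31. Medians of lists near background moved further, to −1.37 for costimulation, −1.08 for endothelial, −1.44 for chemokine receptor and −0.72 for mast cell genes. The neutrophil median was 0.49 under this setting. Of the list medians 490 values stayed within the spread and 66 moved, and of the named genes 1369 stayed and 68 moved. The spread is the pooled SD within the 2 groups over the same 5 libraries. An outlying library widens it, so these counts do not measure stability. Of the 32 list medians, 26 turned sign under at least 1 alternative. Those of the amino acid, macrophage, MHC class II, sensor, Wnt and chemokine receptor lists kept it under all 17, whereas the interferon median was 0.06 without PLX+PTX replicate 1. The cause of these shifts was not tested.

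The precision is limited by 3 and 2 libraries, and by background: 198 of 750 endogenous probes, most T cell genes among them, lay under the detection limit in all 5 libraries. R replicate 2 had the highest scaled limit of the 5 at 50.6. No paired analysis was possible because the labels give the groups no shared replicate numbers.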

Other observations

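Some probes of closely related genes gave very unequal counts. S100a8 was among the high counts, but its usual partner S100a9, with which it forms calprotectin, had 15.8, 31.5 and 10.6 normalised counts in R and 11.4 and 14.8 in PLX+PTX. The classical MHC class I gene H2-D1 had 7389, 4600.0 and 6145 in R and 7827 and 6578 in PLX+PTX. H2-K1, the other classical gene, was above the detection limit in no library, with 12.3, 17.7 and 11.5 in R and 9.49 and 3.48 in PLX+PTX. Levels of different probes are not on 1 scale, and the reason was not tested.

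Cxcl15 and Cd36 were each high in R replicate 1 alone, at 265 and 506 normalised counts. Glul was high in the same library, at 748.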
